A study of Drosophila melanogaster with 4 samples.

Results

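The genes of the circadian clock and its outputs were examined in heads of fasted male Drosophila melanogaster in which the CREB coactivator TORC had been lost or returned to neurons. The members were the 10 listed genes per, tim, Clk, cyc, vri, Pdp1, cwo, cry, Pdf and to, and a probe set belonged to a member when the platform annotation gave that gene as its only symbol. Of the 10, 9 had a probe set, 11 probe sets in all, out of 11982 genes that could be named on the arrays. No probe set was annotated to takeout (to), which is not analysed here. Every member probe set lay above the floor signal of 13.85 on all 4 arrays, so no member was lost to the filter on low values.

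RNA came from male heads after 24 h of fasting and was hybridised as biotin-labelled target to 4 arrays. One came from wild-type (WT) control flies, one from TORC mutant flies, and the others from flies labelled rescue control and flies labelled TORC neuronal rescue. The labels give no age, allele, strain, driver or number of flies, and they do not say whether the rescue control carries the mutation. They also give no hour of collection, and the members include genes whose transcripts are known to cycle over the day. With 1 array per group no difference below has a replicate check, and the folds compare single arrays.

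The fly clock is a set of interlocked feedback loops. The transcription factors Clock (Clk) and cycle (cyc) switch on period (per) and timeless (tim), whose proteins return to the nucleus and hold Clk and cyc in check. In a further loop vrille (vri) represses Clk and Pdp1 activates it, while clockwork orange (cwo) represses Clk and cyc targets. The photoreceptor protein cryptochrome (cry) resets the clock by light, and the neuropeptide Pdf carries timing from the lateral neurons. In a whole head much of the clock transcript comes from the compound eye, with glia, fat body and a small set of clock neurons adding to it. In light-dark cycles per, tim, vri, Pdp1 and cwo transcripts peak around dusk and early night and Clk and cry transcripts peak around dawn, while cyc and Pdf transcripts do not cycle. TORC, the product of the gene Crtc, has been reported to support tim transcription in fly clock neurons.

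Some facts of the arrays bear on all members. For Crtc the WT control gave a signal of 203, the mutant 3.8, the rescue control 6.7 and the neuronal rescue 37.4, so the library labelled rescue control was also below the floor. Head markers were present on each array: the 10 measured photoreceptor markers, such as trp and Arr2, summed to between 37714 and 41265, and all lay above the floor. Body tissue markers also differed. The 10 testis markers summed to 4497 with WT control RNA and 8784 with neuronal rescue RNA, but to 41.6 with mutant RNA and 112.7 with rescue control RNA. For 10 accessory gland and ejaculatory tract markers these sums were 12032 and 12961, but 60.1 and 87.8. The 7 gut markers summed to 5735 with WT control, 17.4 with mutant, 1747 with rescue control and 3855 with neuronal rescue RNA. The 8 head fat body markers, all above the floor on each array, summed to 15958, 31050, 21053 and 24152 respectively. Among them the yolk protein gene Yp1, known for its expression in females, read 3235, 4617, 17.6 and 4524 in this RNA labelled male. Among genes above the floor on all arrays the median log2 ratio was 0.07 for the mutant over the WT control and -0.14 for the neuronal rescue over the rescue control.

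By the brighter probe set of each gene, the largest range over the arrays was in Pdp1 (Entrez gene 45588), at 3.49-fold. The dimmer tim probe set, given below, ranged further, at 3.92-fold. Pdp1 is the PAR-domain leucine zipper gene that activates Clk and was first described as an activator of muscle genes. The WT control gave a signal of 815, the mutant 251, the rescue control 241 and the neuronal rescue 234. The WT control stood apart, and the other 3 arrays lay within 1.08-fold of each other. The mutant lay 3.24-fold below the WT control, a log2 ratio of -1.70, and the neuronal rescue 1.03-fold below the rescue control. The neuronal rescue was 3.49-fold below the WT control.

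Of the 7492 genes above the floor on all arrays, 15 (0.2%) were, like Pdp1, at least 3-fold brighter in the WT control than on each other array, a threshold chosen after the values had been seen. Pdp1 is expressed in muscle, and the 10 muscle markers summed to 29048 with WT control RNA, 12024 with mutant RNA, 31968 with rescue control RNA and 15434 with neuronal rescue RNA. The high rescue control sum rested on fln (5251 against 2156 with WT control RNA) and Act88F (6807 against 3116). In the rescue control over the WT control 6 of 10 muscle markers lay below 0, with a median log2 ratio of -0.22, and Pdp1 was 3.38-fold lower there. Some fat body markers, namely Lsp2, fit, Tsf1 and Lsd-1, were lowest in the WT control, where Pdp1 was highest. Of these, Lsp2 read 1139 with WT control, 8765 with mutant, 8793 with rescue control and 5512 with neuronal rescue RNA. The remaining list genes Yp1, Yp2, Yp3 and apolpp instead had their minimum with rescue control RNA. Yp3 even peaked with WT control RNA, at 2339 against 1508 (mutant), 133 (rescue control) and 2034 (neuronal rescue). The part of muscle or fat body markers in the Pdp1 difference was not tested. In this bulk RNA, fewer cells of a type and less RNA per cell cannot be told apart. The single Pdp1 probe set also does not show which of the gene's transcripts, clock or muscle, was measured.

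**Figure D1:**
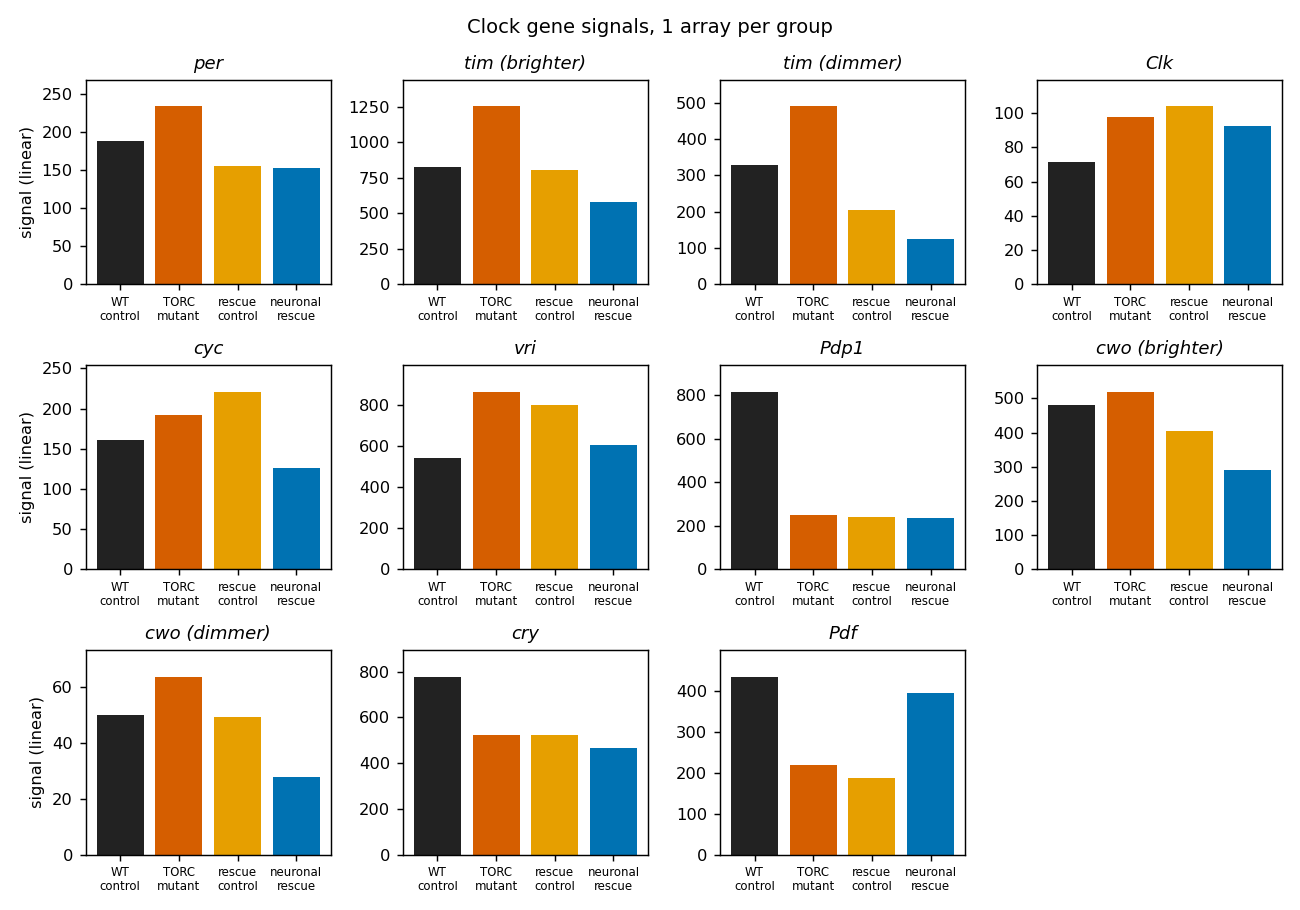
Signal of each member probe set on the 4 arrays, 1 bar per array on a linear axis that starts at 0; tim and cwo have a brighter and a dimmer probe set. Pdp1 is high in the WT control alone (815 against 234 to 251), and Pdf is high with WT control and neuronal rescue RNA (435 and 395 against 220 and 187).

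Pdf (Entrez gene 43193), the peptide of the clock's lateral neurons, was the one member that separated the arrays as Crtc did. The WT control gave a signal of 435 and the neuronal rescue 395, while the mutant gave 220 and the rescue control 187. Both arrays with a Crtc signal above the floor were brighter than both arrays below it, and the nearest values across that gap differed 1.79-fold. The mutant lay 1.98-fold below the WT control for Pdf (log2 ratio -0.98), just short of the 2-fold threshold, and the neuronal rescue 2.11-fold above the rescue control (log2 ratio 1.08). Those 2 comparisons share no array.

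The neuronal rescue lay within 1.10-fold of the WT control for Pdf, although its Crtc signal was 37.4 against 203. Of the 7492 genes above the floor on all arrays, 1011 (13.5%) were brighter on both the WT control and neuronal rescue arrays than on both others, and 118 (1.58%) were so by at least 1.5-fold, a threshold chosen after the values had been seen. The testis and accessory gland markers split the arrays in the same way as Pdf. So did the 3′ to 5′ signal ratio of the control transcript eIF-4a, a measure of RNA integrity, at 4.03 and 4.19 on those arrays and 3.12 and 3.44 on the mutant and rescue control arrays. For GAPDH this ratio was 2.02 and 1.90 on the first 2 and 1.57 and 1.52 on the others. For Act5C the ratio did not split that way, at 3.86 with WT control, 2.68 with mutant, 3.77 with rescue control and 3.70 with neuronal rescue RNA. The sum of 11 neuron markers was 6117 with WT control RNA, 6912 with mutant RNA, 5852 with rescue control RNA and 4961 with neuronal rescue RNA. Typical signal level parted the arrays like Pdf too. Non-control signals had medians of 36.6 (WT control) and 37.2 (neuronal rescue), yet 19.8 (mutant) and 20.6 (rescue control). Probe sets exceeding the floor made up 63.2% and 63.0% on the first pair, yet 53.4% and 54.9% on the second. The part of any of these in the Pdf difference was not tested.

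Other peptides and receptors of clock neurons were then read beside Pdf. Of 14 measured genes of that list, Pdf included, none was at least 2-fold apart between the mutant and the WT control, where 1.74% of all genes were higher and 11.6% lower. In the neuronal rescue over the rescue control Pdf was the 1 higher gene, and the receptor gene Dh31-R was the 1 lower gene, at 132 with rescue control RNA and 60.8 with neuronal rescue RNA. Of all genes 12.8% were higher and 1.5% lower there. A dimmer probe set of Dh31-R had a log2 ratio of -0.16 there. For the Pdf receptor gene Pdfr the WT control gave 113, the mutant 131, the rescue control 160 and the neuronal rescue 114. Its lowest values thus fell on the arrays where Pdf was highest, at log2 ratios of 0.21 and -0.50 in the main comparisons. The peptide genes sNPF, NPF and ITP are expressed in some clock neurons and in other cells. Their log2 ratios were 0.53, 0.19 and -0.32 for the mutant over the WT control. For the neuronal rescue over the rescue control they were -0.18, 0.47 and 0.05.

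**Figure D2:**
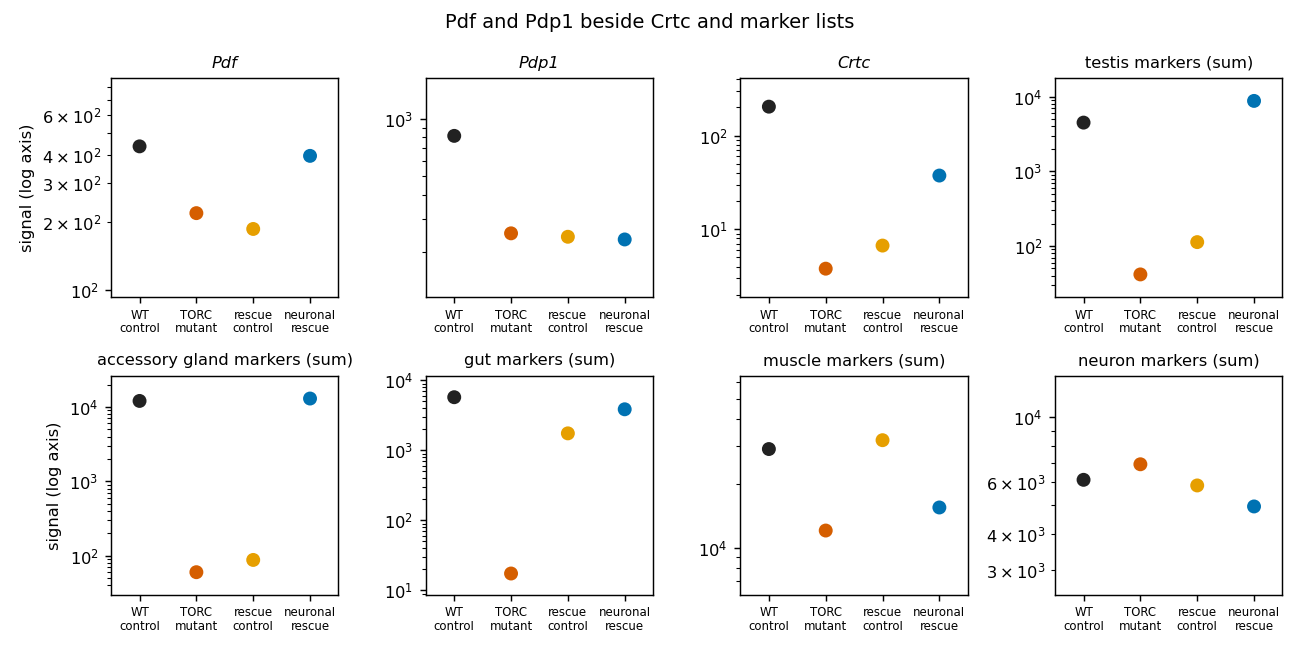
Signals of Pdf, Pdp1 and Crtc and summed signals of 5 marker lists on the 4 arrays, 1 point per array on log axes whose ranges differ between panels. Pdf is high where Crtc, testis and accessory gland markers are high, and Pdp1 is high in the WT control alone, while the summed muscle marker signal is also high in the rescue control.

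Among the repressors of the main loop, per (Entrez gene 31251) was measured at 188 for WT control, 234 for mutant, 155 for rescue control and 152 for neuronal rescue RNA. The mutant was the highest and the rescue arrays lay close together. The mutant over WT control ratio was 1.24-fold (log2 0.31), and the neuronal rescue over rescue control log2 ratio was -0.03, nearer to 0 than that of 94.2% of genes above the floor. For its partner tim (Entrez gene 33571) the brighter probe set read 829 with WT control RNA, 1253 with mutant RNA, 805 with rescue control RNA and 583 with neuronal rescue RNA. The dimmer probe set had 329, 489, 206 and 125 in the same order.

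Both tim probe sets were highest in the mutant and lowest in the neuronal rescue. The mutant was 1.51-fold above the WT control by the brighter and 1.49-fold by the dimmer probe set. The neuronal rescue was 1.38-fold and 1.65-fold below the rescue control. Between the neuronal rescue and the mutant, tim was 2.15-fold lower by the brighter probe set and 3.92-fold lower by the dimmer one, log2 ratios of -1.10 and -1.97. Brighter minus dimmer, the probe set ratios differed by 0.87 there and by 0.63 for the rescue control over the WT control. They differed by 0.89 for the neuronal rescue over the WT control and by -0.61 for the mutant over the rescue control. Robust SDs of such differences were 0.59, 0.54, 0.60 and 0.55, over the 414 genes that had 2 probe sets above the floor. In the main comparisons the tim probe sets were 0.02 and 0.25 apart, against SDs of 0.48. The neuron markers had a median log2 ratio of -0.73 for the neuronal rescue over the mutant, the glial markers -0.42 and the photoreceptor markers -0.26; the part of these in the tim difference was not tested.

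In the second loop, vri (Entrez gene 33759), the leucine zipper repressor of Clk, read 541 with WT control RNA, 863 with mutant RNA, 796 with rescue control RNA and 605 with neuronal rescue RNA. Both arrays below the floor for Crtc were brighter than both others, the reverse of Pdf, a pattern shared by 2327 of the 7492 genes above the floor on all arrays (31.1%). The mutant was 1.59-fold above the WT control and the neuronal rescue 1.32-fold below the rescue control. Pdp1, which binds the same sites as vri, did not follow it. For cwo (Entrez gene 44669), a basic helix-loop-helix Orange repressor, the brighter probe set read 479, 520, 404 and 289 with WT control and mutant RNA and then with rescue control and neuronal rescue RNA, and the dimmer one 50.2, 63.8, 49.3 and 27.9.

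Both cwo probe sets were highest in the mutant and lowest in the neuronal rescue, as tim was. The mutant lay 1.08-fold and 1.27-fold above the WT control for cwo. The neuronal rescue lay 1.40-fold and 1.77-fold below the rescue control. By the brighter probe set, per, tim and cwo were 3 of 9 members with the mutant highest and the neuronal rescue lowest, an order held by 18.6% of the same 7492 genes. Over all members, 4 of 9 (per, tim, vri and cwo) were highest in the mutant, against 33% of genes, and 6 of 9 were lowest in the neuronal rescue, against 37.5%.

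Of the activator genes, Clk (Entrez gene 38872) read 71.3 with WT control RNA, 98.0 with mutant RNA, 104 with rescue control RNA and 92.6 with neuronal rescue RNA, so the WT control alone lay apart, at the low end. The mutant was 1.37-fold above the WT control and the neuronal rescue 1.12-fold below the rescue control. Its partner cyc (Entrez gene 40162) had 161, 192, 221 and 126 in the same order. The neuronal rescue was 1.75-fold below the rescue control for cyc, a log2 ratio of -0.81, and 4.04% of genes above the floor were as low or lower. Like vri, both Clk and cyc were dimmer with WT control and neuronal rescue RNA than on the others. These were 3 of 9 members, where 31.1% of genes above the floor held the pattern. For Clk the neuronal rescue lay only 1.06-fold below the mutant. That log2 ratio was 0.03 under median centring and 0.38 under head marker centring, so the order reversed.

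The blue-light photoreceptor gene cry (Entrez gene 42305) read 778 with WT control RNA, 522 with mutant RNA, 523 with rescue control RNA and 468 with neuronal rescue RNA. As with Pdp1, the WT control was highest and the other 3 arrays lay close together. The gap was smaller, at 1.49-fold above the nearest array. The mutant was 1.49-fold below the WT control and the neuronal rescue 1.12-fold below the rescue control.

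Counted at 2-fold, few members were apart in any pairing. In the mutant over the WT control none of 9 was higher and 1, Pdp1, was lower, where 1.74% of all genes were called higher and 11.6% lower. In the neuronal rescue over the rescue control 1, Pdf, was higher and none was lower, where 12.8% of genes were called higher and 1.5% lower. In the neuronal rescue over the mutant tim was the 1 lower member (background 2.98%), and in the neuronal rescue over the WT control Pdp1 was (2.78%). In the rescue control over the WT control Pdp1 and Pdf were lower (11.2%). Between the mutant and the rescue control no member was called, where 2.69% of genes were in either direction. These counts use the brighter probe set of each gene. By its dimmer probe set tim was 2.38-fold higher in the mutant over the rescue control. That probe set was 2.63-fold lower in the neuronal rescue over the WT control. The dimmer cwo probe set was 2.29-fold lower in the neuronal rescue over the mutant. These shares of members rest on 9 genes. The background shares cover all 11982 genes, including genes at the floor, whereas every member lay above it. Among the 7492 genes above the floor on all arrays, 1.04% were as low as Pdp1 in the mutant over the WT control. In the neuronal rescue over the rescue control 1.64% were as high as Pdf. In the rescue control over the WT control 0.69% were as low as Pdp1 and 1.9% as low as Pdf.

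The median log2 ratio of the members was 0.25 for the mutant over the WT control, where 6 of 9 lay above 0, and -0.17 for the neuronal rescue over the rescue control. In the latter 8 of 9 lay below 0, although per and Pdp1 passed above 0 under median or head marker centring and Clk and cry under head marker centring. The medians over all genes above the floor were 0.07 and -0.14. The difference in log2 ratio between 2 probe sets of a gene had a robust SD of 0.48 in both comparisons, a measure that leaves out the spread between animals.

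**Figure D3:**
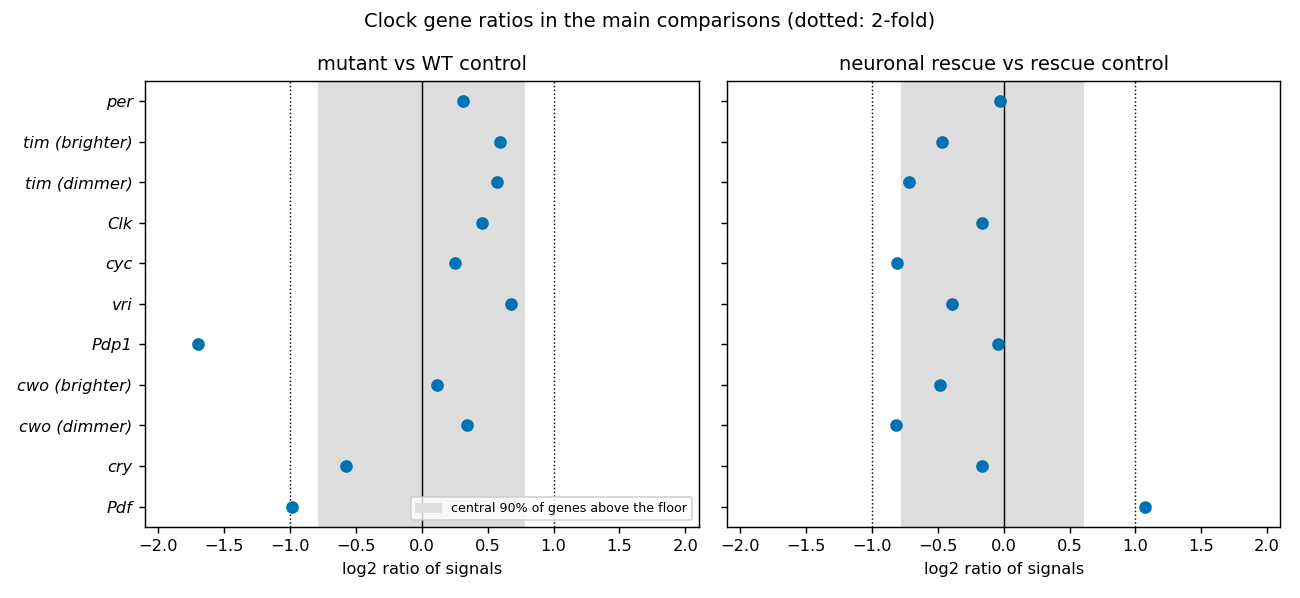
Log2 ratio of each member probe set for the mutant over the WT control (left) and the neuronal rescue over the rescue control (right), 1 point per probe set, with the central 90% of the 7492 genes above the floor shaded and 2-fold marked by dotted lines. Pdp1 (-1.70) and Pdf (-0.98) lie left of the shading in the first panel and Pdf (1.08) right of it in the second, where cyc (-0.81) and the dimmer cwo probe set (-0.82) lie at its left edge.

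Evening and morning phase genes were then compared. Evening genes were per, tim, vri, Pdp1 and cwo, and morning genes were Clk and cry, each by its brighter probe set. For the mutant over the WT control, 4 of 5 evening genes lay above 0 (log2 ratios of 0.12 to 0.67, with cwo at -0.01 once arrays were centred on head markers) and Pdp1 far below it. The evening mean was 0.00053 with Pdp1 and 0.42 without it. The morning genes went opposite ways, Clk at 0.46 and cry at -0.57, with a mean of -0.06. The difference between evening and morning means was therefore 0.06 with Pdp1 and 0.48 without it, and neither phase group moved as a unit.

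For the neuronal rescue over the rescue control all 5 evening genes lay below 0, from -0.48 to -0.03 with a mean of -0.28, with the same exceptions for per and Pdp1. Both morning genes also lay below 0, at -0.17 and -0.16, except under head marker centring. The evening minus morning difference was -0.12. Between the neuronal rescue and the mutant, the evening mean was -0.64 with all 5 below 0, Pdp1 not under median or head marker centring. The morning mean was -0.12, a difference of -0.52. Under head marker centring the evening mean was -0.17, while the evening minus morning difference stayed at -0.52. Between the mutant and the rescue control all 5 evening genes lay above 0, vri and Pdp1 not under head marker centring. Their mean was 0.35 against -0.04 for the morning genes. With head marker centring that evening mean was 0.10, while the evening minus morning difference stayed at 0.40. These last comparisons share the mutant array, on which tim, per and cwo were brightest, and each shares an array with the main comparisons. They also run across a split in the Bacillus transcripts added to the RNA before labelling, whose geometric mean was 77.3 and 76.8 on the WT control and mutant arrays and 351 and 261 on the rescue control and neuronal rescue arrays.

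**Figure D4:**
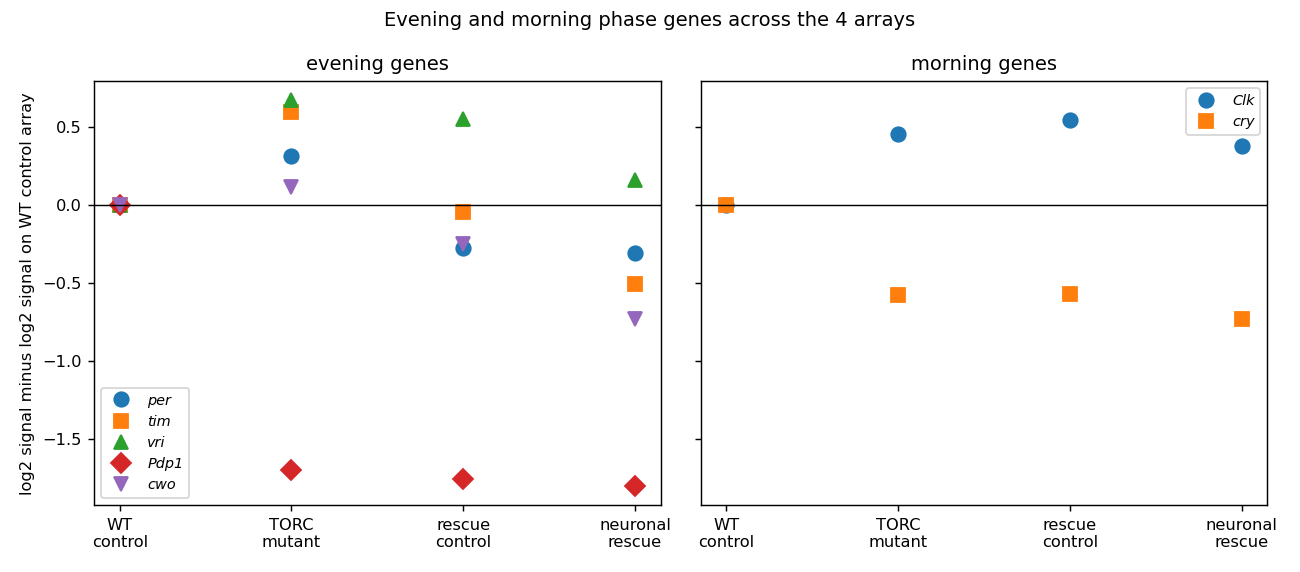
Log2 signal of evening genes (left) and morning genes (right) relative to the WT control array, 1 point per gene and array, brighter probe set of each gene. Of the evening genes, 4 lie between 0.12 and 0.67 in the mutant while Pdp1 lies at -1.70, and Clk and cry lie on opposite sides of 0 on all 3 other arrays.

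Other genes of the pathway were taken from lists of clock protein modifiers, output and light input genes, peptides and receptors, takeout relatives, relatives of clock genes and known head cycling genes. Outside the members these held 72 measured genes. In the mutant over the WT control 2 of 72 were at least 2-fold higher and 4 lower, where 1.74% and 11.6% of all genes were. In the neuronal rescue over the rescue control 1 was higher and 3 were lower, against 12.8% and 1.5% of all genes. Among 11 measured kinase, phosphatase and ubiquitin ligase genes and cofactors that act on clock proteins, none was called in the mutant. The casein kinase gene dco (doubletime), which phosphorylates the per protein, read 456 with WT control, 525 with mutant, 492 with rescue control and 465 with neuronal rescue RNA, so its range was narrow. The F-box genes slmb and jet have products that help destroy the per and tim proteins. Their log2 ratios were 0.40 and 0.59 in the mutant over the WT control. In the neuronal rescue over the rescue control they were -0.56 and -0.45. Both were dimmer with WT control and neuronal rescue RNA, as were 31.1% of genes above the floor. Cul3 (-0.27 and 0.62) and ctrip (-0.07 and 0.12) went the other way in these comparisons. Of the 11 genes, 8 lay above 0 and 3 below in the mutant over the WT control. In the neuronal rescue over the rescue control 5 lay above 0 and 6 below.

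The CBP gene nej, a histone acetyltransferase that binds CREB, was the 1 gene of that list called in a main comparison. Its signals were 54.6, 57.4, 43.9 and 20.4 with WT control and mutant RNA and then with rescue control and neuronal rescue RNA, and the neuronal rescue lay 2.15-fold below the rescue control. A dimmer nej probe set was below the floor on both rescue arrays and gave no ratio. Among 16 output and light input genes, daywake (dyw) lay 4.94-fold below the rescue control in the neuronal rescue. Achl, a rhythmic neuronal gene, lay 2.15-fold below the WT control in the mutant (31.6 and 14.7, close to the floor).

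The dyw gene belongs to the takeout family and lies beside per, and in the RefSeq Release 6 annotation the 2 genes overlap by 49 bases. The WT control gave 69, the mutant 102, the rescue control 119 and the neuronal rescue 24.0. The neuronal rescue alone was low, and per on the same arrays did not show that gap (155 and 152 on the rescue control and neuronal rescue arrays). The light input gene qsm had 333, 455, 464 and 238 in that order of arrays, a log2 ratio of -0.96 in the neuronal rescue over the rescue control. The brighter probe set of the rhythmic ion channel partner Slob had 738, 1244, 1306 and 942, with log2 ratios of 0.75 and -0.47 in the main comparisons. Like vri, qsm and this Slob probe set were dimmer in the WT control and the neuronal rescue, as were 31.1% of genes above the floor. The dimmer Slob probe set did not hold that pattern. It had 138, 142, 114 and 79.3, with log2 ratios of 0.04 and -0.52.

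Of 19 measured takeout relatives, which encode secreted proteins of the juvenile hormone binding type, 16 were above the floor on any array. The mutant had Jhbp12 at least 2-fold above the WT control and Jhbp5 and Jhbp11 at least 2-fold below it. Jhbp5 read 436 with WT control, 25.1 with mutant, 37.9 with rescue control and 619 with neuronal rescue RNA, high on the arrays with high testis and accessory gland markers, and it was the 1 relative called higher in the neuronal rescue over the rescue control. Jhbp11 had 162, 58.0, 57.4 and 59.8, high in the WT control alone. Jhbp12 had 64.5, 158, 175 and 205, low in the WT control alone. Among 10 measured head cycling genes, the mutant was above the WT control for the serine protease gene easter (ea; 29.7 and 79.3 on the WT control and mutant arrays) and below it for the inositol phosphate synthase gene Inos (1493 and 583). Neither was called in the neuronal rescue over the rescue control. Beside both lists, 1.74% of all genes were called higher and 11.6% lower in the mutant over the WT control. In the neuronal rescue over the rescue control 12.8% were called higher and 1.5% lower.

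Genes with the most similar course over the 4 arrays were sought for the members that ranged 2-fold or more over them, namely tim, Pdp1 and Pdf. The measure was the Euclidean distance between 4 log2 signals, each gene centred on its own mean, among 1098 genes that ranged at least 2-fold above the floor. Nearest to Pdp1 was the cytochrome P450 gene Cyp6a23 at a distance of 0.07, with signals of 322 in the WT control and 101, 97.9 and 89.0 on the others. CG4593 and Jhbp11 followed at 0.26. Nearest to Pdf were ValRS-m at 0.11 (69.6, 37.5, 33.2 and 68.6 listed from WT control and mutant to rescue control and neuronal rescue), Phf5a at 0.16 and CG14721 at 0.17. Nearest to tim were mask at 0.04 (537, 801, 535 and 382), CG6329 at 0.06 and CG17572 at 0.07. With 4 points, close likeness is a description of these arrays.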

How the data were processed

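The authors deposited 1 linear intensity per probe set and array. MAS5 is the summarisation tool that the submitters' processing notes name, without a version. The 2% trimmed mean was 150.005 on all 4 arrays, so the arrays had been scaled alike before deposit. Signals in the text are as deposited. For ratios they were scaled to an equal trimmed mean, raised to a floor of 13.85 (40th percentile over 18769 non-control probe sets, median of the arrays) and log2 transformed. A gene was called at 2-fold or more.

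Of 13647 probe sets with 1 symbol, 13544 matched RefSeq by Entrez identifier. For counts the brightest probe set stood for its gene. Groups came from the sample titles. With 1 array per group no test was run, and the number of arrays limits the precision. Genes named were the members, Crtc, list genes called in a main comparison (otherwise the 3 with the largest ratios in a list), examples of markers and, for members that ranged 2-fold, the 3 genes nearest in pattern. The genes dco, slmb, jet, Cul3, ctrip, Pdfr, sNPF, NPF, ITP, qsm and Slob fall outside that rule and were chosen after their values were seen. The members, phase groups and lists were chosen with earlier results of these data known. Python 3.11.15, numpy 2.4.6, pandas 2.3.3, scipy 1.17.1 and matplotlib 3.10.9 were used.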

Additional observations from a re-analysis of the deposited data

How the results depend on the processing

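No paired analysis was possible because each group has 1 array. Precision is limited by that number, and the dim cwo and nej probe sets and Achl lie near the floor. No called member ratio changed direction under any alternative scaling or floor. Ratios of members that were not called crossed 0 mostly under centring on head markers, among them Clk (0.05), cry (0.05), per (0.19) and Pdp1 (0.17) for the neuronal rescue over the rescue control and cwo (-0.01) for the mutant over the WT control. Leaving Pdp1 out of the evening genes moved the evening minus morning difference for the mutant over the WT control from 0.06 to 0.48. The alternative that added to to the evening genes was not run. The share of called genes that were higher in the mutant moved from 13% to 35.7% with quantile normalization and 26.2% under a 60th percentile floor. In the neuronal rescue over the rescue control it moved from 89.5% to 59.5% with quantile normalization.

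Counts of called members were small and moved with the threshold. At 1.5-fold they were 4 for the mutant over the WT control, 2 for the neuronal rescue over the rescue control, 5 for the neuronal rescue over the mutant, 3 for the neuronal rescue over the WT control and 2 for the mutant over the rescue control. At 3-fold they were 0 for the neuronal rescue over the rescue control and over the mutant, and 1 for the rescue control over the WT control. Pdf passed 2-fold in the mutant with median or head marker centring, giving 2 members. The neuronal rescue over the mutant gave 0 with median centring and 2 with the mean over probe sets. With head marker centring its count stayed at 1, but the called member was Pdf. There Pdf had a log2 ratio of 1.31, and tim by its brighter probe set had -0.64, short of 2-fold.

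Counts over the 72 pathway genes at 1.5-fold were 16, 13, 22, 15, 12 and 14 for the mutant over the WT control, neuronal rescue over rescue control, neuronal rescue over mutant, rescue control over WT control, mutant over rescue control and neuronal rescue over WT control. At 3-fold they were 1, 2, 2, 1, 0 and 1. Quantile normalization gave 13, 14, 9 and 0 for the second to the fifth of these. For the neuronal rescue over the rescue control the count was 7 under a 20th percentile floor and 2 under a 60th percentile floor, the mean over probe sets, no floor or head marker centring. For the neuronal rescue over the mutant it was 4 under a 60th percentile floor and 5 with the mean over probe sets. For the neuronal rescue over the WT control it was 3 under a 60th percentile floor, and for the rescue control over the WT control 3 without a floor. For the mutant over the rescue control it was 2 under a 20th percentile floor, 3 with head marker centring, and 0 under a 60th percentile floor, the mean over probe sets or no floor. The cause of these moves was not tested.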
